A study of Mus musculus with 6 samples.

Results

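REST, the repressor encoded by Rest, and the proteins of the corepressor complexes that it recruits or that work beside them were described across 6 arrays of mouse embryonic stem (ES) cells. A list of 41 genes was taken from general knowledge of these complexes, and every probe of a listed gene was taken, older gene names included. The array held 38 of the 41 genes, with 59 probes, among 25697 probes for 17759 named genes. No probe was found for the CoREST scaffold gene Rcor3, the histone chaperone gene Rbbp4 or the CtBP gene Ctbp2, which were not analysed here.

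The study asked how Rest-null ES cells differ from controls. All 6 samples were of E14Tg2a, an Hprt-deficient ES cell line that grows without feeder cells, and biotin-labelled total RNA of each was read on its own array, all on 1 chip of the MouseRef-8 v2 type from Illumina. The 3 control samples have the genotype control and the source name FloRes, and the 3 REST KO samples have the genotype REST KO and the source name FloResCre. The labels do not give the deleted exons, the number of clones or whether replicates came from separate cultures, so a p-value sets a difference against the spread among the deposited samples alone, and that spread may be technical. No treatment or time point is given for either genotype.

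REST is a zinc-finger protein that binds RE1 elements in and near neuronal genes and holds these genes silent outside neurons. Its C-terminal domain recruits CoREST, a scaffold that joins a histone H3K4 demethylase to histone deacetylases, and its N-terminal domain recruits SIN3, another deacetylase scaffold. The H3K9 methyltransferases G9a and GLP, the NuRD remodelling and deacetylase complex, the CtBP corepressors and the ATP-dependent BAF remodelling complex have also been linked to REST. In ES cells most of these proteins are abundant and serve many other DNA-binding factors.

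The arrays could not be checked by Rest itself, whose probe was not detected on any of them. All 8 ES cell markers (Pou5f1, Nanog, Sox2, Zfp42, Esrrb, Tdgf1, Dppa5a and Utf1) were detected on all 6 arrays, with a mean log2 level of 11.8 to 12.4 in control and 11.5 to 11.9 in REST KO. None of the 8 had a difference above 0. Sox2 was lower on every REST KO array (-0.81 ± 0.17 SE, adjusted p = 0.07 by limma), while the others overlapped between genotypes. Among those, Esrrb differed by -1.01 ± 0.41 (SE), Zfp42 by -0.99 ± 0.45 and Nanog by -0.61 ± 0.40. These differences had a wider spread and were not called (adjusted p = 0.23, 0.28 and 0.44 by limma). Of 5 fibroblast markers 4 were detected on none of the arrays, and so were 3 of the 5 neuronal markers with a probe (Tubb3, Dcx and Snap25). The remaining fibroblast marker, Thy1, was detected on all 6. Of 3 astrocyte markers, Gfap and Aqp4 were detected on none. Slc1a3 was detected on all 6 and was higher on every REST KO array (0.41 ± 0.14 SE, adjusted p = 0.17 by limma). The mean log2 level of the neuronal list was 5.92 to 6.70 in control and 6.85 to 6.93 in REST KO. Most of that separation came from Syp. Of the 2 detected genes, Syp differed by 2.94 and Map2 by 0.51, Map2 with overlapping arrays. Neither was called by the limma fit used here (adjusted p = 0.10 and 0.34). The authors' deposited limma table lists Syp with an adjusted p of 0.046 and Map2 with 0.38. Single control arrays stood apart. Syp, synaptophysin, stood at 7.0, 7.3 and 10.2 in control replicates 1, 2 and 3 and at 11.1, 11.2 and 11.1 in REST KO replicates 1, 2 and 3, so control replicate 3 lay toward the REST KO arrays. Zfp42, which encodes the naive ES cell factor REX1, stood at 12.73, 11.27 and 12.86 in control and 10.99, 10.98 and 11.93 in REST KO, so control replicate 2 lay among the REST KO arrays. The part of these control arrays in the results below was not tested beyond leaving each out. Control arrays lay at chip positions A to C and REST KO arrays at D to F of 1 chip, so position and genotype cannot be told apart.

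No gene of these complexes passed the test for a change in REST KO cells. A probe was tested when its detection p was under 0.05 on at least 3 of the 6 arrays, and a gene was represented by its brightest tested probe. Of the 38 genes 32 were tested, with 46 probes, and limma with Benjamini-Hochberg adjustment over all 11388 tested probes called none, against 1.37% of all tested genes and 1.27% of all tested probes. The lowest adjusted p among the 32 genes was 0.16 (Hdac3). Unadjusted, 3 of the 32 genes (9.38%) and 6 of the 46 probes had a p under 0.05 in the same limma fit, where 20.4% of all tested genes and 19.9% of all tested probes did. The authors' deposited limma table called none of the 59 probes at an adjusted p of 0.05, against 1.74% of all probes. There 12 of the 59 had an unadjusted p under 0.05, a higher share than the 13.7% of all probes. Most of all probes were not tested here, while 46 of the 59 were, so these shares are not alike in detection.

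Differences were small on the log2 scale, where a difference of 1 is a 2-fold change. They ran from -0.30 to 0.40 over the 32 genes, with a median of 0.03 and a median size of 0.12, while over all 8636 tested genes they ran from -2.03 to 3.94, with a median of -0.01 and a median size of 0.16. None of the 32 exceeded 0.5 in size, which 976 (11.3%) of all tested genes did. The 95% confidence interval of each of the 32 genes lay within a 2-fold change either way, as it did for 7795 (90.3%) of all tested genes. Smaller changes were less well bounded, since for 18 of the 32 (56.2%) the interval lay within 0.5 either way, against 51.7% of all tested genes. In these bulk samples fewer cells with a transcript and less transcript per cell cannot be told apart.

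**Figure D1:**
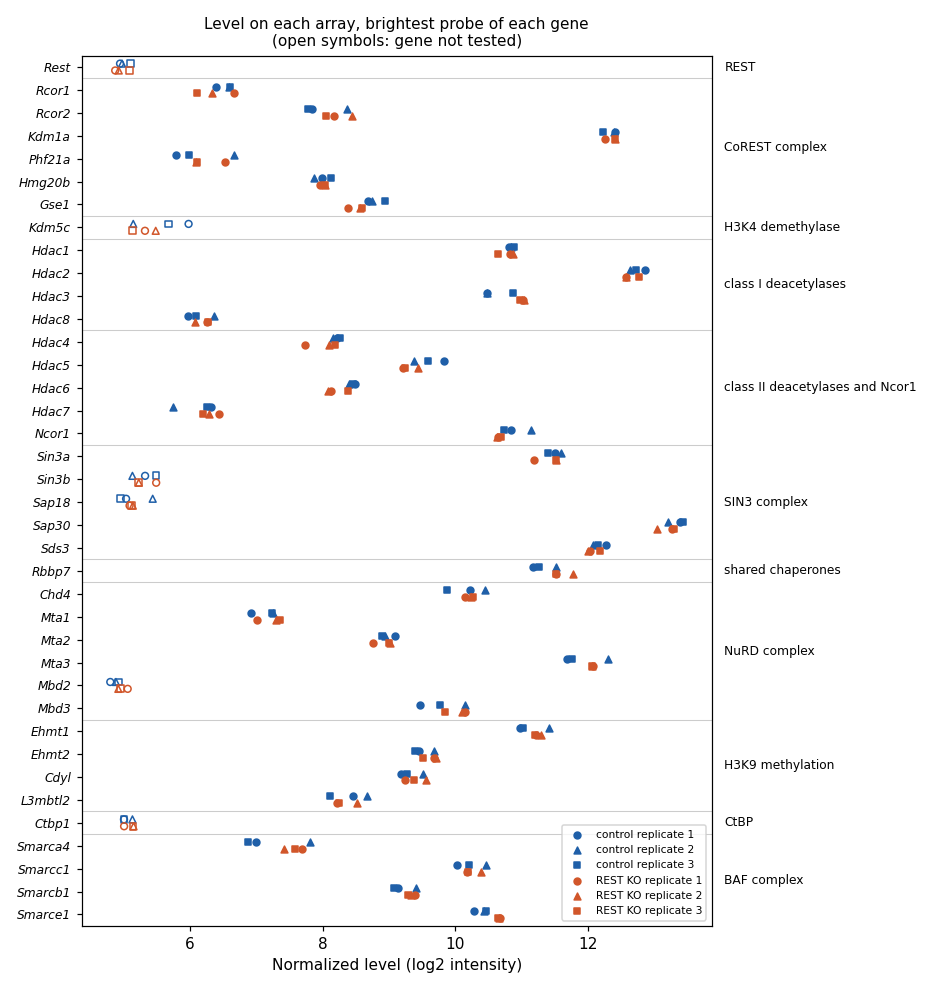
Normalized level (log2 intensity, horizontal axis) of each of the 38 genes on each array, by the brightest probe, ordered by complex. Blue symbols are control arrays, orange symbols REST KO arrays, shapes give the replicate, and open symbols mark the 6 genes that were not tested. Probes differ in brightness for technical reasons, so levels are to be read within a gene and not between genes; in 5 of the 32 tested genes the 2 genotypes do not overlap.

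**Figure D2:**
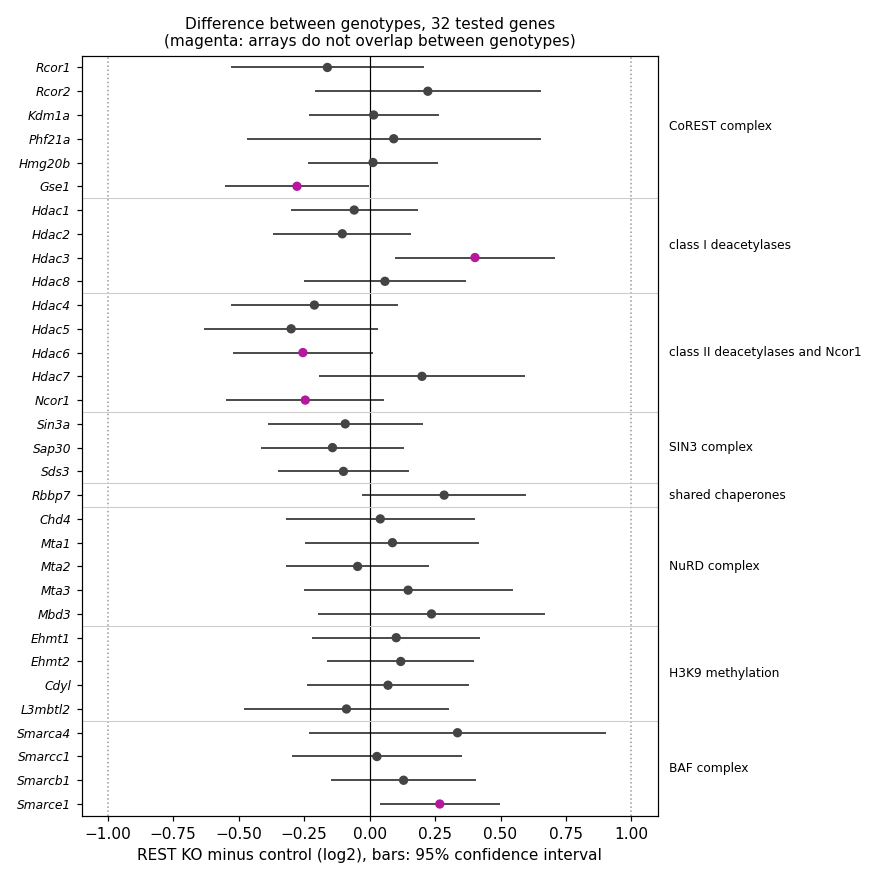
REST KO minus control (log2, horizontal axis) for the 32 tested genes, with the 95% confidence interval of the limma fit (3 arrays per genotype). The dotted lines mark a 2-fold change either way, and every interval lies between them. Magenta points mark the 5 genes in which the control and REST KO arrays are fully separate.

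Rest itself gave no measurable signal. Its single probe, on chromosome 5, had log2 levels of 4.94, 4.97 and 5.11 in control and 4.87, 4.92 and 5.08 in REST KO. These overlap, and all lie below the lowest detected level of any probe, which was 5.72 to 5.86 depending on the array. The lowest detection p over the arrays was 0.375. The difference of -0.05 ± 0.09 (SE) compares background with background. No fold can be drawn from it, and the probe says nothing on whether the transcript was lost. The authors' deposited table lists the same probe with a log2 difference of -0.07 and an adjusted p of 0.84.

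In the CoREST complex 0 of 6 tested genes passed the test in either direction. The differences ran from -0.28 to 0.22 with a median of 0.01. Rcor1 encodes the CoREST scaffold that REST binds. Its levels were 6.39, 6.59 and 6.61 in control and 6.66, 6.34 and 6.10 in REST KO. REST KO replicate 1 was the highest array and REST KO replicate 3 the lowest, so the genotypes overlap, with a difference of -0.16 ± 0.16 (SE, adjusted p = 0.61). Rcor2 on chromosome 19, a paralogous scaffold, stood at 7.84, 8.37 and 7.79 in control and 8.17, 8.44 and 8.05 in REST KO. Control replicate 2 lay among the REST KO arrays, and the difference was 0.22 ± 0.18 (adjusted p = 0.54). The array's own target name for this probe is RCOR1, which RefSeq lists as an older name of Rcor2, while the Rcor1 probe carries the target name D12WSU95E.

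Kdm1a encodes LSD1, the demethylase of the complex, and was at 12.41, 12.39 and 12.23 in control and 12.25, 12.41 and 12.42 in REST KO. The arrays of the 2 genotypes interleave, and the difference was 0.02 ± 0.11 (adjusted p = 0.95), with a 95% interval of -0.23 to 0.26. Gse1, which encodes a subunit found with CoREST, stood at 8.69, 8.75 and 8.94 in control and 8.38, 8.57 and 8.60 in REST KO. All 3 REST KO arrays lay below all 3 controls, but the difference of -0.28 ± 0.12 was not called (adjusted p = 0.24). A further Gse1 probe was detected on no array. The other members were Phf21a, which encodes the reader of unmethylated H3K4 BHC80 (0.09 ± 0.24), and Hmg20b, which encodes the HMG-box subunit BRAF35 (0.01 ± 0.11). Phf21a was detected on 2 of the 3 control arrays. Kdm5c, an H3K4 demethylase gene on the X chromosome reported to act beside REST, was not tested, since 1 of its 3 probes was detected on 1 control array and the others on none.

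Among the class I deacetylases 0 of 4 genes passed. Hdac1 and Hdac2 encode the catalytic subunits shared by CoREST, SIN3 and NuRD. Hdac1 was at 10.81, 10.84 and 10.89 in control and 10.82, 10.88 and 10.65 in REST KO, and Hdac2 was at 12.86, 12.64 and 12.74 in control and 12.57, 12.58 and 12.78 in REST KO. Both genes overlap between genotypes, with differences of -0.06 ± 0.10 and -0.10 ± 0.11 (adjusted p = 0.79 and 0.64). Hdac3, the deacetylase of the NCOR complex, had the largest difference of the 32 genes. It stood at 10.49, 10.47 and 10.87 in control and 11.02, 11.04 and 10.97 in REST KO. Each REST KO array was above each control array, and control replicate 3 was the nearest to them. The difference was 0.40 ± 0.13 with a 95% interval of 0.10 to 0.71, or 1.07-fold to 1.64-fold, and it did not pass the adjustment (adjusted p = 0.16, unadjusted p = 0.02 by limma). Hdac8, on the X chromosome, had a difference of 0.06 ± 0.13.

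The class II deacetylases, several of which act with NCOR1 and shuttle between nucleus and cytoplasm, were grouped with Ncor1. This group had the lowest median difference of the complexes, -0.25, which is the value of Ncor1. Of its 5 tested genes 4 had a difference below 0, where 47.7% of all tested genes were above 0, but 0 of 5 passed. Hdac5 was read by 3 probes, and all were lower in REST KO on average, by -0.30 to -0.43. Its brightest probe had 9.83, 9.38 and 9.59 in control and 9.21, 9.44 and 9.24 in REST KO, which overlap (-0.30 ± 0.14, adjusted p = 0.29). Its next probe had 8.87, 8.65 and 8.83 in control and 8.41, 8.34 and 8.35 in REST KO, which do not overlap (-0.42 ± 0.10, adjusted p = 0.09). That probe was called without control replicate 2 (-0.48, adjusted p = 0.03) and with array weights (-0.46, adjusted p = 0.03). In the authors' deposited table it has an adjusted p of 0.064, the lowest of the 59 probes.

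Hdac6, a mainly cytoplasmic deacetylase of tubulin, stood at 8.49, 8.40 and 8.46 in control and 8.13, 8.08 and 8.38 in REST KO. The groups do not overlap, with a difference of -0.25 ± 0.11 (adjusted p = 0.27), although REST KO replicate 3 came close to the controls. Its other probe had -0.09 ± 0.11. Ncor1, the scaffold that holds HDAC3, was at 10.84, 11.15 and 10.73 in control and 10.64, 10.64 and 10.70 in REST KO. All controls were above all REST KO arrays, the nearest by little (-0.25 ± 0.13, adjusted p = 0.33). Hdac4 had -0.21 ± 0.14 and Hdac7 0.20 ± 0.17, each with overlapping arrays, and Hdac7 was detected on 2 of the 3 control arrays.

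Arrays of the 2 genotypes did not overlap in 5 of the 32 genes (15.6%), against 26.1% of all tested genes. Hdac3 and Smarce1 were higher on every REST KO array (12.9% of all tested genes were), and Gse1, Hdac6 and Ncor1 lower (13.2% of all tested genes). By probes the count was 10 of 46 (21.7%), against 25.1% of all tested probes. Both shares lie below those of all tested genes and probes, the probe share by little. The counts are small and the shortfall was not tested.

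Short matches to the RE1 element were looked for in the 250 bases before each RefSeq start (assembly GRCm38.p6), on both strands, since REST can act on genes near its sites. Windows were found for 35 of the genes, several starts per gene in some. The left arm of the element, CAGCACC, was in a window of 1 member (Ncor1), a lower share than the 6.56% of 27025 genes. The right arm, GGACAGC, was in a window of 5 members (Chd4, Gse1, L3mbtl2, Mbd3 and Rcor2), a higher share than the 6.14% of all genes. These counts are small and the shares were not tested against each other. A joined form, in which the first 6 bases of the right arm follow the left arm after a gap of 2, was in no member's window and in 10 genes (0.037%). The windows of Gse1 and Ncor1 are shown because these are the members that hold an arm and whose arrays are separate by genotype; capitals mark the arm, which in Ncor1 lies on the opposite strand. The Gse1 window is chr8:120537159-120537408 on the plus strand, with the arm beginning at base -217 from the start, and the Ncor1 window is chr11:62438516-62438765 on the minus strand, with the arm at -227.
Gse1: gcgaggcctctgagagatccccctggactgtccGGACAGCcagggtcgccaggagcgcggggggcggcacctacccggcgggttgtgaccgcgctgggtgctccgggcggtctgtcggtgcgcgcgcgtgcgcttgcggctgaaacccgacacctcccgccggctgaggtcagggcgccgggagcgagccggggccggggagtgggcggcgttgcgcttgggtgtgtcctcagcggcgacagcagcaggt
Ncor1: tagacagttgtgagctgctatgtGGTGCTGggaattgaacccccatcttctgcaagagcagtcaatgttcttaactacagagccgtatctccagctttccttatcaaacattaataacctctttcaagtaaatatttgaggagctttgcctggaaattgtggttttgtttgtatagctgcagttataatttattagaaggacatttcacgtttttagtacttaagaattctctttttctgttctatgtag
Both genes were lower on every REST KO array, neither difference was called, and no binding data were used here, so a match is a description of letters and not a site.

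In the SIN3 complex 0 of 3 tested genes passed, with differences of -0.14 to -0.09. Sin3a encodes the scaffold that the N-terminus of REST binds. It was at 11.50, 11.60 and 11.41 in control and 11.19, 11.52 and 11.52 in REST KO. REST KO replicate 1 was the lowest array and the others lay within the control range (-0.09 ± 0.13, adjusted p = 0.72). Sap30, a small subunit that bridges to the deacetylases, had -0.14 ± 0.12, and Sds3, now named Suds3, which is needed for the activity of the bound deacetylase, had -0.10 ± 0.11. Sin3b, the paralogous scaffold, and Sap18 were detected on no array and were not tested.

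Rbbp7, a histone chaperone (RbAp46) shared by SIN3 and NuRD, was read by 4 probes on the X chromosome, all higher on average in REST KO, by 0.25 to 0.49. The brightest had 11.17, 11.52 and 11.27 in control and 11.51, 11.78 and 11.51 in REST KO. Control replicate 2 reached the REST KO range while the other controls stayed below it (0.28 ± 0.13, adjusted p = 0.29). Arrays did not overlap in 2 of the 4 probes, the dimmest of which had the largest difference (0.49 ± 0.16, adjusted p = 0.15). None of the 4 was called. Probes of 1 gene share its RNA and are no further replicates.

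**Figure D3:**
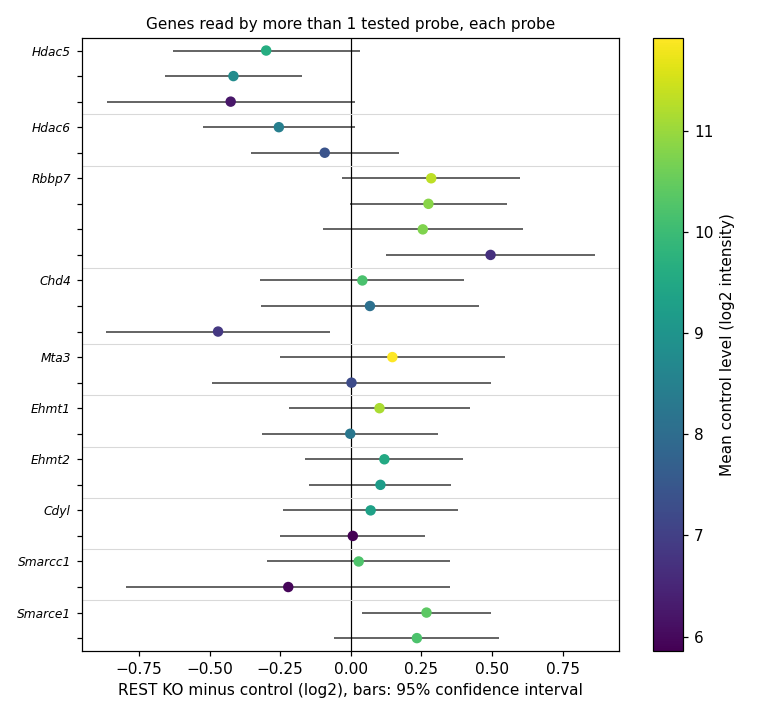
REST KO minus control (log2, horizontal axis) of each tested probe, for the 10 genes with more than 1 tested probe, brightest probe first. Bars are 95% confidence intervals of the limma fit, and the colour gives the mean control level (log2 intensity). The probes of Hdac5 all lie below 0 and those of Rbbp7 and Smarce1 all above 0, while the dimmest probe of Chd4 lies apart from the other Chd4 probes.

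In NuRD, which joins nucleosome remodelling to deacetylation, 0 of 5 tested genes passed, and the median difference was 0.09. Chd4, the remodelling ATPase Mi-2 beta, gave probes that disagree. By its brightest probe it was at 10.22, 10.45 and 9.87 in control and 10.15, 10.24 and 10.27 in REST KO, where every REST KO array lay within the control range (0.04 ± 0.15). By its dimmest it was at 6.56, 7.12 and 6.81 in control and 6.15, 6.43 and 6.51 in REST KO, with no overlap (-0.47 ± 0.17, adjusted p = 0.19). The direction for Chd4 therefore depends on the probe. The MTA subunits, which hold the deacetylases, had 0.09 ± 0.14 (Mta1), -0.05 ± 0.12 (Mta2) and 0.15 ± 0.17 (Mta3). Mbd3, the methyl-binding-domain subunit of NuRD in ES cells, was at 9.46, 10.14 and 9.77 in control and 10.15, 10.10 and 9.84 in REST KO. Control replicate 2 lay with the REST KO arrays (0.24 ± 0.18, adjusted p = 0.52). Mbd2, its alternative, was detected on no array.

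Of the H3K9 methylation genes 0 of 4 passed, with differences of -0.09 to 0.12. Ehmt2, which encodes G9a, had 0.12 ± 0.12, and its other tested probe 0.10 ± 0.11. Ehmt1, which encodes its partner GLP, was at 10.98, 11.41 and 11.02 in control and 11.22, 11.29 and 11.20 in REST KO. Control replicate 2 was the highest array and the other controls the lowest (0.10 ± 0.14). A dimmer Ehmt1 probe differed by less than 0.01 with the opposite sign, so that no direction is given. Cdyl, a chromodomain corepressor that links REST to G9a, had 0.07 ± 0.13, and L3mbtl2, a reader of methylated histones, had -0.09 ± 0.17. Ctbp1, the corepressor gene whose product also sits in CoREST assemblies, was detected on no array.

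The BAF remodelling complex had differences above 0 in 4 of 4 tested genes, with a median of 0.20, where 47.7% of all tested genes were above 0, and 0 of 4 passed. Smarca4 encodes BRG1, its ATPase, which has been found at REST sites. It was at 6.99, 7.81 and 6.87 in control and 7.68, 7.41 and 7.59 in REST KO. Control replicate 2 was the highest of all 6 arrays while the other controls were the lowest, and the difference was 0.34 ± 0.24 (adjusted p = 0.48). Without control replicate 2 it was 0.63 ± 0.12 and was called (adjusted p = 0.02), which was the only member gene called in any of the alternative fits run. In that fit 14.6% of all tested probes were called. Some other differences also grew without control replicate 2, to 0.41 for Rcor2, 0.34 for Mta3 (adjusted p = 0.06), 0.41 for Mbd3 and 0.24 for Ehmt1, and none of these was called. Others shrank, to 0.34 for Hdac3 and -0.13 for Ncor1, and Hdac5 moved further below 0, to -0.41. Without that array 19 of the 32 genes were above 0, as in the main fit, against 50.4% of all tested genes.

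Smarce1, which encodes the HMG-box subunit BAF57, was at 10.29, 10.43 and 10.46 in control and 10.68, 10.66 and 10.64 in REST KO. Every REST KO array was above every control (0.27 ± 0.10, 95% interval 0.04 to 0.50, adjusted p = 0.19). A second probe had 10.01, 10.42 and 10.18 in control and 10.42, 10.43 and 10.46 in REST KO, where control replicate 2 came to the edge of the REST KO arrays (0.23 ± 0.12). Smarcb1, a core subunit, had 0.13 ± 0.12. Smarcc1, the BAF155 scaffold gene, had 0.03 ± 0.14 by its brightest probe and -0.22 ± 0.25 by a dim one that was detected on 2 control arrays and 1 REST KO array. Its direction therefore depends on the probe too. Of the 10 genes with more than 1 tested probe, 7 had the same sign on all of them, the exceptions being Chd4, Ehmt1 and Smarcc1.

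Control arrays varied more than REST KO arrays, and control replicate 2 lay farthest from its group. Over all tested genes its median distance from the mean of the other 2 controls was 0.215. The same distance was 0.158 and 0.147 for control replicates 1 and 3, and 0.118 to 0.133 for the REST KO arrays. The median SD over 3 arrays was 0.18 in control and 0.12 in REST KO for the 32 genes, near the 0.17 and 0.13 of all tested genes. Control replicate 2 was the highest control in 17 of the 32 genes (53.1%), against 42.9% of all tested genes. Averaged over the BAF genes, the deviation from each gene's own mean over the 6 arrays was -0.25, 0.17 and -0.20 in control replicates 1, 2 and 3 and 0.12, 0.09 and 0.07 in REST KO replicates 1, 2 and 3. The 2 lower controls thus lay below the REST KO arrays and control replicate 2 above them. For the class II deacetylases and Ncor1 the same deviation was 0.16, -0.01 and 0.09 in control and -0.14, -0.07 and -0.03 in REST KO. There every control average lay above every REST KO average. The members of a complex share these 6 arrays and are not replicates of each other.

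**Figure D4:**
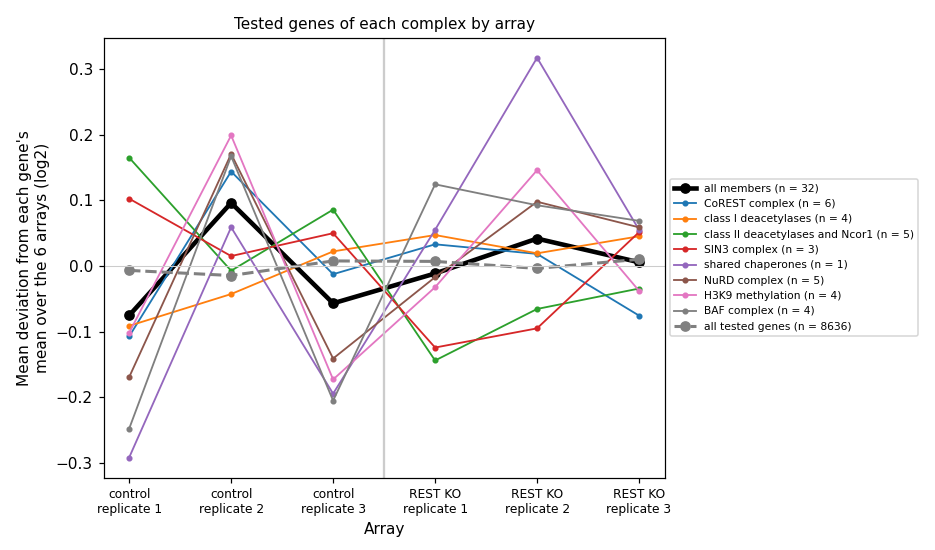
Mean deviation of the tested genes of each complex from each gene's mean over the 6 arrays (log2, vertical axis), by array. The thick black line is all 32 genes and the dashed grey line all 8636 tested genes. Control replicate 2 departs from the other controls in the BAF, NuRD and H3K9 methylation genes. The class II deacetylases and Ncor1, as a group, lie lower on the REST KO arrays.

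A wider list of 49 genes, partners of the same complexes and enzymes that set REST stability, was read in the same fit. The array held 45 of them and 34 were tested, of which 0 rose (1.11% of all tested genes did) and 1 fell (0.255% did), with 7 at an unadjusted p under 0.05 by limma (20.4% of all tested genes) and a median of -0.08. The gene that fell was Zeb1, a zinc-finger repressor that recruits CtBP and CoREST. It was at 9.36, 9.12 and 9.32 in control and 8.59, 8.60 and 8.71 in REST KO. The arrays are well apart, with a difference of -0.63 ± 0.11 (adjusted p = 0.0468). The call is a narrow one and was lost under 9 of the alternative fits, among them each that left out 1 array other than control replicate 2. The authors' deposited table lists the probe with an adjusted p of 0.014.

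The enzymes that act on the REST protein gave no call. Skp1a encodes an adaptor of the SCF ubiquitin ligase that marks REST for degradation and had the largest difference above 0 of the wider list. It was at 9.49, 9.44 and 9.46 in control and 10.00, 9.87 and 10.01 in REST KO. Every REST KO array was above every control (0.50 ± 0.10, adjusted p = 0.0555), and the authors' deposited table lists the probe with an adjusted p of 0.018. It was called in 5 of the alternative fits. Cul1, the scaffold of the same ligase, was at 8.93, 9.02 and 8.43 in control and 9.06, 9.31 and 9.11 in REST KO. All REST KO arrays were higher, control replicate 2 being close to them (0.37 ± 0.17, adjusted p = 0.28). Btrc, the F-box protein beta-TrCP that recognises REST, had -0.23 ± 0.10 and Usp7, a deubiquitinase of REST, had -0.26 ± 0.10, each lower on every REST KO array and neither called. The small phosphatase genes Ctdsp1, Ctdsp2 and Ctdspl, whose products dephosphorylate REST, had -0.13, -0.15 and 0.38, and Terf2, whose telomere protein binds REST, had -0.27. Usp15 was not tested.

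**Figure D5:**
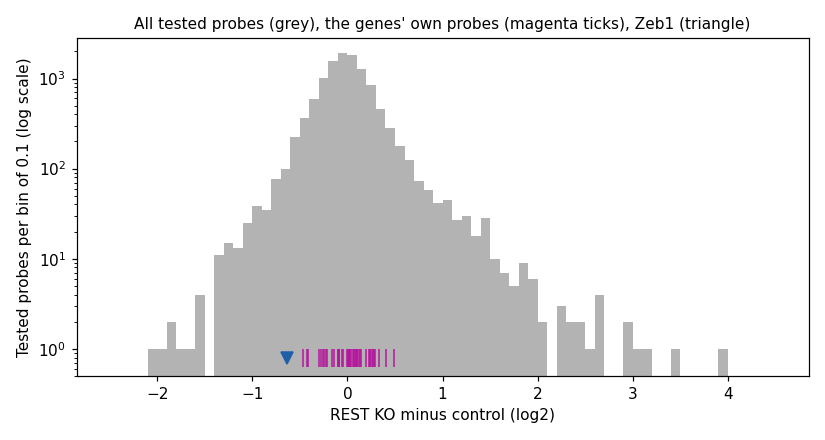
Number of tested probes per bin of 0.1 (vertical axis, log scale) by REST KO minus control (log2, horizontal axis), for all 11388 tested probes. Magenta ticks are the 46 tested probes of the 32 genes, all between -0.47 and 0.49, and the triangle marks Zeb1 at -0.63.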

How the data were processed

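Mean bead intensity per probe was deposited from BeadStudio 3.3.7 without normalization, per the file headers, and so was the number of beads, with a mean of 40.0 to 40.2 per probe and array. The authors' deposited detection score, a fraction, is headed as a p-value but rises with signal, so the detection p used here is 1 minus that score. Deposited log2 values matched the intensities after log2 and quantile normalization alone, to within 5e-09. The authors' deposited limma table gives log2 differences and p-values; the sources used here give neither its model options nor its build.

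Intensities were corrected for background and quantile normalized with neqc (limma 3.58.1 in R 4.3.3), which took the detection p in place of control probes, with an offset of 16 that shrinks differences of dim probes. Probes detected (p under 0.05) on 3 or more of the 6 arrays entered a two-sided limma test of genotype (lmFit, eBayes), with no covariate, and p-values were adjusted by Benjamini-Hochberg, with a threshold of 0.05. Errors of differences are standard errors of that fit. Each array detected 42.5% to 44.9% of probes, and precision is limited by having 3 arrays per genotype. The method was tested on simulated data, in which most changes of 0.5 (log2) were not called.

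Genes were named by the authors' symbols, else the array's target names, updated through RefSeq (GRCm38.p6). The members and lists were chosen with earlier results of these data known. Values were given in full, by rule, for Rest, Rcor1, Rcor2, Kdm1a, Hdac1, Hdac2, Sin3a, called members, the 3 largest differences each way, members whose arrays do not overlap and members whose probes disagree in sign; Mbd3 and Cul1 were added after their values were seen. Of the wider list, called genes, the largest difference each way and the REST stability genes were named. Alternatives were the normalization, offset, filter, array weights, eBayes options, replicate block, probe averaging and leaving out each array.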

Additional observations from a re-analysis of the deposited data

How the results depend on the processing

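By the main fit 145 probes were called (120 higher, 25 lower). Other settings gave 332 (259 and 73, quantile normalization without background correction), 274 (219 and 55, offset of 50), 50 (46 and 4, no filter), 69 (62 and 7, detected on all 6 arrays), 1386 (730 and 656, array weights), 364 (272 and 92, eBayes with trend and robust), 138 (123 and 15, cyclic loess) and, with the replicate block, 0 (2376 at an unadjusted p under 0.05 by limma). Leaving out 1 array gave from 0 to 1668 calls. The highest, 1668, came on leaving out control replicate 2, and leaving out control replicate 3 gave 249. Each of the other 4 omissions, control replicate 1 and the REST KO arrays, gave 0 (1445 to 2085 at an unadjusted p under 0.05 by limma). The median difference of the genes described was 0.0342 in the main fit. Over the alternatives it ran from -0.0088 (without control replicate 1) to 0.0924 (array weights). It was also below 0 without REST KO replicate 2 (-0.0049).

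Called member genes stayed at 0 under each setting but 1, and ran from 0 to 1 over the fits without 1 array (Smarca4, without control replicate 2). The alternatives gave 612 values, for the 32 tested genes and 9 genes of the wider list. Of these, 574 kept direction and side of the threshold and 23 changed sign. A further 6 became called (5 of Skp1a, the other of Smarca4) and 9 lost the call (all of Zeb1). The causes were not tested. With array weights Hmg20b was -0.042 and L3mbtl2 0.022, and with the mean of probes Chd4 was -0.12 and Smarcc1 -0.10. Over the fits without 1 array the sign-changing differences ran from -0.0425 to 0.0684 (Kdm1a), -0.0857 to 0.35 (Phf21a), -0.0497 to 0.078 (Hmg20b), -0.11 to 0.0076 (Hdac1), -0.0261 to 0.17 (Hdac8), -0.15 to 0.0151 (Sin3a), -0.11 to 0.18 (Chd4), -0.0179 to 0.19 (Mta1), -0.0926 to 0.0361 (Mta2), -0.0116 to 0.16 (Cdyl), -0.24 to 0.0407 (L3mbtl2) and -0.0752 to 0.14 (Smarcc1).

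Whether same-numbered arrays are paired cannot be told from these data: their deviations correlated at -0.27, 0.34 and 0.36 over tested probes. Genes whose probes lie at background, Rest among them, have only a bound, and dim probes are pulled toward 0.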
